A study of Mus musculus with 30 samples.

Results

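Within a group of 10 mice kept on a high fat diet, the 5 whose quadriceps muscle showed the most Lep, the gene for leptin, were compared with the 5 that showed the least. These are 10 of the 30 arrays of the series. The other 20 come from mice on the low fat diet, 10 killed at day 0 of the intervention (LF day 0) and 10 after 56 further days (LF day 56). The 5 high-Lep and the 5 low-Lep arrays of the high fat group (HF day 56) were chosen by their linear Lep intensity, ranked over the 10 arrays, and are not a grouping of the study. Lep was therefore left out of every test.

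All animals were male mice of the strain that the labels spell C56BL/6J and the design text C57BL/6J, and no allele or drug is named for any of them. All 3 groups had eaten a standard growth diet for 3 weeks and then, from an age of 9 weeks, the low fat run-in diet for 3 weeks. The LF day 0 mice were 12 weeks old when killed. The LF day 56 and HF day 56 mice, assigned at random, were 20 weeks old. Each array held total RNA of the quadriceps of 1 mouse, labelled with biotin, so each value is an average over every cell type in the piece of tissue that was taken. Fast fibre genes marked every HF array as skeletal muscle. All 11 measured fast fibre genes exceeded an intensity of 20, taken here as the limit of a low signal, on at least 5 of the 10 HF arrays, and Actn3, the fast fibre alpha-actinin, lay between 18246 and 20106.

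Leptin is a hormone made mainly by fat cells. Its release follows the size of the fat store, and it acts on receptors in the hypothalamus to restrain feeding. White fat cells also secrete adiponectin and resistin, hold triglyceride in a single large droplet coated with perilipin and CIDE proteins, and depend on the transcription factors PPAR gamma and C/EBP alpha. Adipocytes occur in muscle between the fibres and around its vessels and fascia. The start of the mouse Lep gene is shown because C/EBP alpha, whose own gene is among those described below, is known to act through a site close to it. The sequence is RefSeq's for GRCm38.p6, chr6:29059971-29060270 on the plus strand. It runs 5′ to 3′ from 250 bases before the start of transcription to 50 bases after it, so it ends within the transcribed part. The capitals mark the C/EBP palindrome TTGCGCAA, which reads the same on both strands and lies 55 to 48 bases before the start.
Lep: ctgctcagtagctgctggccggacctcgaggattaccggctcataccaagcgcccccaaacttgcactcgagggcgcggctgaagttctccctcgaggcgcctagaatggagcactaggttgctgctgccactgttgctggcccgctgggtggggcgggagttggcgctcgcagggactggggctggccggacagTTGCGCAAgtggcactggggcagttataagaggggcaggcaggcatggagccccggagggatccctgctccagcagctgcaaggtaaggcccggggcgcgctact
The same 8 letters occur in 60 of 32851 mouse promoters of this length (0.183%).

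Lep on the 10 HF arrays, from the lowest, had an intensity of 8.5, 9.9, 14.6, 14.8 and 27.4 on the low-Lep arrays (replicates 3, 7, 5, 6 and 2 of the labels) and 31.2, 38.2, 44.5, 57.9 and 186.7 on the high-Lep arrays (replicates 1, 4, 8, 10 and 9). All per-array values below keep this order. The division falls between replicate 2 at 27.4, just outside the high-Lep arrays, and replicate 1 at 31.2, just inside them, and replicate 9 stands apart at more than 3 times the next value. On the log2 scale Lep averaged 5.82 ± 1.02 (SD, n = 5) on the high-Lep arrays and 3.79 ± 0.65 (SD, n = 5) on the low-Lep arrays. In the low fat groups it lay between 6.9 and 17.7 at day 56 (median 8.8) and between 4.3 and 8.8 at day 0 (median 5.55). Thus 4 of the 5 low-Lep arrays lay within the range of the LF day 56 mice, while every high-Lep array lay above it. These Lep values chose the groups and are given as a description.

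**Figure D1:**
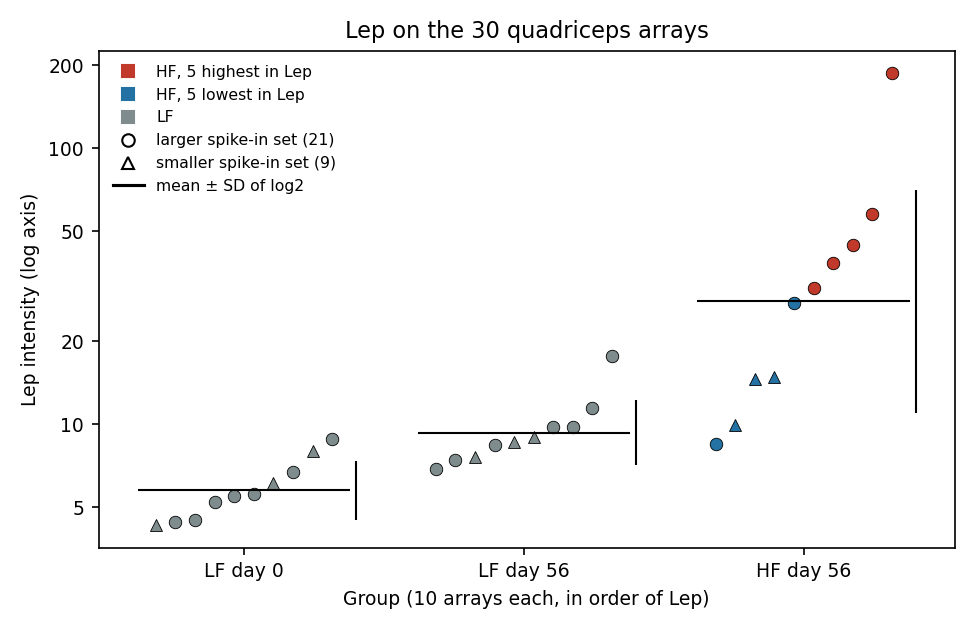
Lep intensity (log axis) on each of the 30 arrays in LF day 0, LF day 56 and HF day 56, 10 arrays a group, with the HF arrays in red for the 5 highest and blue for the 5 lowest. Circles are arrays of the larger spike-in set and triangles those of the smaller set, lines are means and bars ± 1 SD of the log2 values; the HF arrays run from 8.5 to 186.7, while the highest LF array is at 17.7.

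Some features varied between the HF arrays, and the signal of added control RNAs went in part with the level of Lep. The signal of control RNAs added before labelling (dap and thr, 5′ against 3′ ends) divides the 30 arrays into a set of 21 and a set of 9. All 3 HF arrays of the smaller set, replicates 7, 5 and 6, were low-Lep arrays, and their Lep values (9.9 to 14.8) lay above those of the 3 LF day 56 arrays of that set (7.6 to 9.0). Jph2, a junctophilin of muscle, was several times higher on those 3 arrays than on the other HF arrays, at 162, 792, 862, 714 and 59.9 on the low-Lep arrays and 67.7, 81.2, 139, 76.0 and 121 on the high-Lep arrays. With the set as a block, the comparison rests on the 5 high arrays against replicates 3 and 2, so the value with the block is given beside each difference and list median that it moves by over 1.5 times. S100a8, a neutrophil gene, exceeded 100 on 3 high-Lep and 3 low-Lep arrays and reached 4031 on replicate 2. Myh7, the slow fibre myosin, exceeded 200 on 3 low-Lep and 2 high-Lep arrays. The part of these features in the differences below was not tested beyond the settings named.

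No gene passed the test between the 5 high-Lep and the 5 low-Lep arrays. Of 16474 entries, 0 (0.0%) had an adjusted p below 0.05 with limma and Benjamini-Hochberg adjustment, and the smallest was 0.179. At an unadjusted p below 0.05 there were 1024 entries higher on the high-Lep arrays (6.22%) and 837 lower (5.08%), which makes 55% of them higher. That share was 40.6% (751 higher, 1097 lower) when each array was centred on its median. With the spike-in set as a block 447 were higher (2.71%) and 469 lower. The high-Lep and low-Lep arrays did not overlap for 150 entries that were higher (0.911%) and 90 that were lower (0.546%). Leaving out replicate 2, the array just below the division, gave 74 entries past the adjusted threshold (28 higher, 46 lower), while leaving out any other single array gave 0. Without replicate 2, the low-Lep arrays left were replicate 3 and replicates 7, 5 and 6 of the smaller spike-in set. Lep and the set can hardly be told apart there, and this fit was not run with the set as a block. In what follows a difference is the mean of the high-Lep arrays minus that of the low-Lep arrays in log2 units with the standard error of the fit, and none of these differences passed the adjusted test.

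With Lep as a continuous measure some genes passed. On the 10 HF arrays, 26 entries rose with Lep (0.158%; adjusted p below 0.05 with limma) and 0 fell. With the spike-in set as a block 23 rose (0.14%), 18 of them the same. The others of the 26, past the threshold without the block only, were Ss18l1, Bscl2, Mest, Sucnr1, Orm1, Slc7a10, Ccr2 and 1 entry without a symbol. The count depends on single arrays, above all on the one with the most Lep, since it was 0 without replicate 9, 6 without replicate 3, 10 without replicate 5 and 17 without replicate 4. The median slope of the 26, which were selected for their slope on these arrays, was 0.46 log2 units of the gene per log2 unit of Lep, and 0.39 without replicate 9. Of the 26, 24 have a symbol. They are Dram1, Cd1d1, Sncg, Mmd, Aldh1a7, Nnmt, Ptger3, Fasn, Gnai1, Prkar2b, Rbp4, Slc36a2, Tmem45b, Cdo1, Ss18l1, Bscl2, Sucnr1, Mest, Slc25a1, Orm1, Slc7a10, Ccr2, Aoc3 and Hp. Where one of them falls outside the rule for named genes, it was chosen after its values were seen. Only 13 of the 26 exceeded an intensity of 20 on at least 5 HF arrays, and the values of the others are low. Of the 26, 0 were among the 74 entries that passed the 5 against 5 comparison without replicate 2. A promoter sequence was at hand for 16 of the 24, and 0 of these hold the palindrome shown above.

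Genes of white adipocytes were mostly higher on the high-Lep arrays. Of 37 listed genes 33 were measured, and 27 of these were higher and 6 lower. At an unadjusted p below 0.05 there were 18 higher and 0 lower, a share of 54.5% beside 6.22% over all entries. The median difference was 0.44, against 0.0018 over all entries. With the set as a block these medians were 0.73 and -0.0071. The list was drawn up with earlier results of these arrays known, so its direction is not independent evidence. Cfd and Plin1, which also define the cell type, were not analysed here. The summed intensity of the list ran from 16600 to 21606 on the high-Lep arrays and from 15366 to 20000 on the low-Lep arrays, so the sum, in which Fabp4 and Car3 weigh most, overlapped. In RNA from whole tissue, more fat cells and more RNA of these genes per fat cell cannot be told apart.

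Among the secreted products, Adipoq, which encodes adiponectin, was at 584, 1071, 952, 1434 and 963 on the low-Lep arrays and at 1109, 1795, 1638, 2074 and 2701 on the high-Lep arrays. The 4 arrays highest in Lep exceeded all 5 low arrays, and replicate 1 lay among the low ones. This is a difference of 0.89 ± 0.25 (SE), or 1.86-fold, with an adjusted p of 0.279. Its slope on Lep was 0.41 ± 0.08 with an adjusted p of 0.0591, and 0.0343 with the set as a block. Retn, the gene for resistin, measured 27.1, 51.9, 39.9, 62.2 and 49.0 against 46.2, 92.5, 71.3, 95.1 and 144 and repeated this order, with replicate 1 again among the low arrays. It differed by 0.92 ± 0.28 (adjusted p = 0.295). Rbp4, the plasma carrier of retinol, was low on all arrays, at 4.5 to 9.3 on the low-Lep arrays and 9.0 to 20.0 on the high-Lep arrays, and rose with Lep with a slope of 0.48 ± 0.07 (adjusted p = 0.0197). Orm1, an acute phase plasma protein, lay at 10.2 to 17.0 on the low-Lep arrays and at 19.7 to 104 on the high-Lep arrays without overlap; its slope of 0.62 ± 0.10 (adjusted p = 0.0385) was 0.40 without replicate 9, and with the set as a block its adjusted p was 0.0619.

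Cidec and Cebpa, from the fat droplet and the fat cell's transcription factors, were arranged in much the same way. Cidec, which enlarges droplets by fusing them, had an intensity of 22.2, 67.0, 57.3, 125 and 47.3 on the low-Lep arrays and 53.9, 145, 97.8, 173 and 274 on the high-Lep arrays. The largest value was that of replicate 9 and the smallest that of replicate 3, the arrays at either end of the Lep ranking, but replicate 6 of the low-Lep arrays exceeded 2 high-Lep arrays. The difference was 1.23 ± 0.46, and 2.0 ± 0.54 with the set as a block, where its slope also passed the test (adjusted p = 0.0345). Cebpa, the gene for C/EBP alpha, measured 15.1, 23.3, 21.5, 28.6 and 19.9 against 30.6, 36.7, 35.3, 51.7 and 52.3. Every high-Lep array exceeded every low-Lep array, and the difference was 0.93 ± 0.19 with an adjusted p of 0.22. Pparg, the gene for PPAR gamma, was lower in signal, at 9.0 to 19.2 and 11.4 to 28.3, and differed by 0.53 ± 0.27 (adjusted p = 0.486), or 0.87 ± 0.33 with the block. Fabp4, a fatty acid binding protein of adipocytes and endothelial cells, was among the strongest signals and differed little, by 0.26 ± 0.09; its values ran from 5497 to 6915 on the low-Lep arrays and from 6272 to 8012 on the high-Lep arrays.

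Other genes known from fat cells were spread over a wide range of levels. Sncg, a synuclein of adipocytes and nerve, was at 53.2, 99.0, 76.7, 113 and 121 on the low-Lep arrays and at 119, 173, 138, 172 and 359 on the high-Lep arrays, and rose with Lep with a slope of 0.52 ± 0.06 (adjusted p = 0.00766). Replicate 1 lay just below replicate 2, and the other 4 high arrays were above all low ones. Mest, an imprinted gene of growing fat cells, measured 10 to 17.0 against 16.4 to 71.9 and rose with a slope of 0.55 ± 0.09 (adjusted p = 0.0333), which was 0.41 without replicate 9. With the set as a block its adjusted p was 0.15, and the call was lost. Slc7a10, an amino acid transporter of white adipocytes, and Trarg1, which regulates the trafficking of the glucose transporter GLUT4, did not overlap between the high-Lep and low-Lep arrays but stayed near background, with highest values of 20.8 and 17.1. Aoc3, an amine oxidase on the surface of fat and smooth muscle cells, lay at 32.2, 58.1, 63.2, 69.4 and 57.8 and 73.1, 91.0, 64.8, 131 and 164, and its slope of 0.43 ± 0.07 passed the test (adjusted p = 0.0483). The lowest of the 10 was replicate 3 and the highest replicate 9. Itih5, a hyaluronan binding protein of fat tissue, differed by 0.78 ± 0.19 (adjusted p = 0.243). Arxes2, a PPAR gamma target of fat cells, and Mrap, which accompanies the corticotropin receptor, were dim at 4.9 to 27.1 and 6.7 to 21.7 over the HF arrays and differed by 1.15 ± 0.32 and 0.66 ± 0.21.

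The adipocyte genes did not all go one way, and Cidea, Lipe, Gpd1, Adig, Car3 and Ppp1r1a were the 6 lower on the high-Lep arrays. Lipe, which encodes hormone-sensitive lipase, was at 22.4, 87.6, 78.1, 102 and 28.7 on the low-Lep arrays and at 27.0, 52.0, 36.2, 48.4 and 53.9 on the high-Lep arrays. The 3 low arrays of the smaller spike-in set exceeded all 5 high arrays, while replicates 3 and 2 lay at or near their lower end. Accordingly the difference was -0.35 ± 0.40 without the block and 0.73 ± 0.25 with it, and its direction depends on the set. Nnat, a membrane protein of adipocytes and nerve, varied from 34.3 to 220.0 over the HF arrays and differed by 0.44 ± 0.50, or 1.38 ± 0.53 with the block. Plin4, a droplet protein that muscle fibres also carry, differed by 0.10 ± 0.12, or 0.19 ± 0.15 with the block. Brown fat genes showed little. Of 9 measured, 7 were higher with a median difference of 0.059 (0.0038 with the block). Only 1 was higher at an unadjusted p below 0.05 (11.1%, beside 6.22% of all entries), and only 2 exceeded 20 on at least 5 HF arrays. Ucp1, the proton channel of brown fat, was at or below 7.0 on every HF array.

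**Figure D2:**
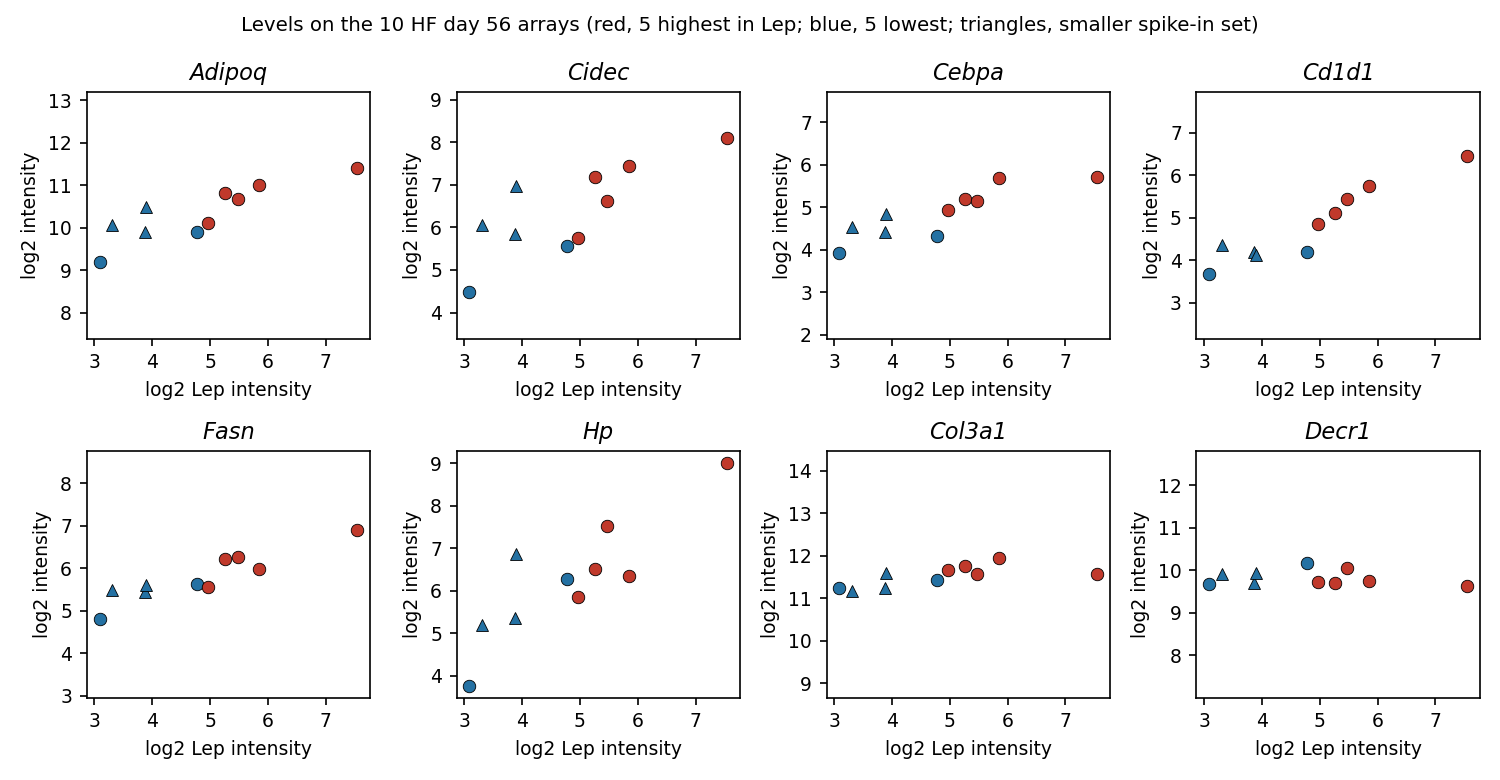
Log2 intensity of 8 genes against log2 Lep on the 10 HF arrays, with the same height of axis in each panel, red for the 5 arrays highest in Lep and blue for the 5 lowest, circles for the larger spike-in set and triangles for the smaller. Adipoq, Cidec, Cebpa, Cd1d1, Fasn and Hp climb with Lep up to replicate 9 at the right, Col3a1 differs by 0.37 between the high-Lep and low-Lep arrays, and Decr1 by -0.11.

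Several signalling and metabolic genes outside the list rose with Lep as well. Cd1d1, which presents lipid antigens to natural killer T cells, did not overlap, with 12.8, 20.6, 18.5, 17.4 and 18.3 on the low-Lep arrays and 29.2, 34.5, 43.5, 53.9 and 87.3 on the high-Lep arrays. The low-Lep arrays were tightly grouped, and among the high-Lep arrays the values followed the Lep ranking from replicate 1 to replicate 9. The difference was 1.41 ± 0.25, 2.66-fold (adjusted p = 0.179), and the slope 0.61 ± 0.07 (adjusted p = 0.00673). Mmd, a membrane protein of the progestin and adiponectin receptor family, measured 238, 261, 310.3, 328 and 272 and 372, 431, 494, 532 and 781, again without overlap and in the Lep order on the high-Lep arrays. It gave a slope of 0.38 ± 0.04 (adjusted p = 0.00766). In the fit of all 30 arrays Cd1d1 and Mmd were the 2 entries past the adjusted threshold between the high-Lep and low-Lep arrays, and 0 passed there with the set as a block.

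Of 4 genes that bear on cyclic AMP, through which catecholamines drive and insulin restrains lipolysis in fat cells, all picked from the genes of smallest p or those that rose with Lep, Prkar2b, Gnai1 and Ptger3 passed the slope test. Pde3b, the phosphodiesterase by which insulin lowers cyclic AMP, was at 13.4 to 21.9 on the low-Lep arrays and 25.8 to 52.6 on the high-Lep arrays without overlap, a difference of 1.11 ± 0.20 (adjusted p = 0.179). Prkar2b, a regulatory subunit of protein kinase A, differed by 1.26 ± 0.23 and rose with a slope of 0.53 ± 0.07 (adjusted p = 0.0169). The inhibitory G protein subunit Gnai1 and the prostaglandin E2 receptor Ptger3, which couples to such proteins, rose with slopes of 0.28 ± 0.04 and 0.57 ± 0.08 (adjusted p of 0.0169 and 0.0169). Cdo1, the cysteine dioxygenase, measured 18.5, 30.7, 24.3, 35.1 and 21.6 and 40.1, 60.7, 74.8, 102 and 152. It was 3.06-fold higher on the high-Lep arrays without overlap, and its slope was 0.67 ± 0.10 (adjusted p = 0.0201). Nnmt, which methylates nicotinamide, and Dram1, a lysosomal membrane protein, had slopes of 0.46 ± 0.06 and 0.43 ± 0.04 (adjusted p of 0.0161 and 0.00673), and both were at 60 or less on every HF array. Tmem45b rose as steeply as Cd1d1, with a slope of 0.61 ± 0.09, from 24.2 on replicate 3 to 214 on replicate 9.

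Fatty acid synthesis genes were slightly higher on the high-Lep arrays. Of 18 listed genes 16 were measured, 15 of them higher and 1 lower, with a median difference of 0.18. At an unadjusted p below 0.05 there were 4 higher (25.0%, beside 6.22% of all entries). Fasn, the fatty acid synthase, was at 27.9, 44.9, 43.6, 48.9 and 49.5 on the low-Lep arrays and 47.2, 74.7, 76.6, 63.0 and 119.9 on the high-Lep arrays. Replicate 9 was the highest and replicate 3 the lowest, and all high arrays but replicate 1 exceeded all low arrays. The difference was 0.79 ± 0.23 (adjusted p = 0.281), and Fasn rose with a slope of 0.39 ± 0.06 (adjusted p = 0.0169). The LF day 56 mice, at 49.7 to 642, all exceeded the low-Lep arrays. Slc25a1, the citrate carrier that supplies carbon for fat synthesis, was low at 9.0 to 12.6 and 13.1 to 27.7, without overlap, and rose with a slope of 0.33 ± 0.05 (adjusted p = 0.0333). Elovl5, a fatty acid elongase, measured 82.4, 64.9, 68.5, 84.1 and 103 and 104, 105, 116, 106 and 109.6. It did not overlap either, though replicate 2 at 103 and replicate 1 at 104 were nearly level, and it differed by 0.44 ± 0.12 (adjusted p = 0.266), or 0.23 ± 0.12 with the block. Scd1, the desaturase that makes oleate, differed by 0.49 ± 0.24, and by 1.02 ± 0.22 with the set as a block. Against LF day 56, the median of the list was -0.0016 for the high-Lep arrays and -0.21 for the low-Lep arrays.

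Triglyceride and droplet genes were mixed. Of 21 measured, 11 were higher and 10 lower, with a median difference of 0.019, or 0.084 with the block. At an unadjusted p below 0.05 there were 4 higher (19.0%, beside 6.22% of all entries) and 2 lower (9.52%, beside 5.08%). G0s2, an inhibitor of the lipase ATGL, was at 119.7, 124, 103, 129.9 and 135 on the low-Lep arrays and 149, 166, 152, 184 and 153 on the high-Lep arrays. The lowest of the second 5 exceeds the highest of the first, with a difference of 0.39 ± 0.09 (adjusted p = 0.243). Bscl2, which encodes the droplet assembly protein seipin, rose with Lep by 0.24 ± 0.04 (adjusted p = 0.0333), a call lost with the set as a block (adjusted p = 0.256). Plin2, a droplet coat protein of fibres and many other cells, differed by 0.28 ± 0.13, or 0.17 ± 0.17 with the block. On the other side stood Fitm1, a droplet forming protein of muscle, with -0.29 ± 0.10 (adjusted p = 0.318), or -0.11 ± 0.10 with the block. Gpam, the first acyltransferase of glycerolipid synthesis, was at 358, 829, 809, 643 and 238 and 249, 255, 529.9, 264 and 279. Its 3 highest values were those of the 3 arrays of the smaller spike-in set, and its difference of -0.78 ± 0.34 became 0.04 ± 0.28 with the set as a block. Plin5 and Dgat2 differed by -0.08 ± 0.21 and 0.26 ± 0.24, and Plin5 by -0.38 ± 0.25 with the block.

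Uptake genes, 10 of them measured, had 7 members higher and a median difference of 0.12, or 0.025 with the block. Cd36, the fatty acid translocase, and Lpl, the lipoprotein lipase, which fibres express strongly, differed by -0.10 ± 0.11 and -0.16 ± 0.15, or -0.05 ± 0.14 and -0.04 ± 0.19 with the block. Mitochondrial fatty acid oxidation was the lipid group with the most members lower on the high-Lep arrays. Here 18 of 20 genes were lower and 2 higher, with a median difference of -0.14, also -0.14 with the block. The median was -0.09 without replicate 9 and -0.067 without replicate 2. At an unadjusted p below 0.05 there were 2 lower (10%, beside 5.08% of all entries), and 0 with the block. Echs1, the enoyl-CoA hydratase, measured 898 to 1354 on the low-Lep arrays and 801 to 999 on the high-Lep arrays, a difference of -0.36 ± 0.11 (adjusted p = 0.295), or -0.18 ± 0.12 with the block. Cpt1b, which admits fatty acids to the mitochondria, differed by -0.28 ± 0.13, and the thiolase Acaa2 by -0.27 ± 0.12. With the block these were -0.10 ± 0.17 and -0.18 ± 0.16. Against LF day 56 the median of these 20 genes was 0.10 on the high-Lep arrays and 0.26 on the low-Lep arrays. Ucp3, a mitochondrial carrier of muscle known to rise with fatty acid supply, was at 1024, 1324, 839, 1818 and 590.2 and 551, 597, 704, 533 and 406. All 5 high arrays lay below 4 of the low arrays, with replicate 2 among the high ones, and the difference was -0.92 ± 0.26 (adjusted p = 0.279). With the set as a block it was -0.50 ± 0.30.

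Some genes stood above LF day 56 on high-Lep and low-Lep arrays alike. Decr1, an auxiliary enzyme for unsaturated fatty acids, was at 823, 966, 835, 986 and 1148 on the low-Lep arrays and 849.8, 828, 1066, 863 and 798 on the high-Lep arrays, and the LF day 56 mice had 625 to 772. All 10 HF arrays thus exceeded all 10 LF day 56 arrays. It exceeded LF day 56 by 0.43 ± 0.08 on the low-Lep arrays, where it rose past the threshold (adjusted p = 0.0287), and by 0.32 ± 0.08 on the high-Lep arrays (adjusted p = 0.0802), while high-Lep and low-Lep arrays differed by -0.11 ± 0.11. Ech1, which acts in the same auxiliary pathway, stood 0.48 ± 0.09 above LF day 56 on the low-Lep arrays and 0.33 ± 0.09 on the high-Lep arrays (adjusted p of 0.055 and 0.221). BC048679, chosen after its values were seen, rose in both comparisons, by 1.16 ± 0.19 on the low-Lep and 0.87 ± 0.19 on the high-Lep arrays (adjusted p of 0.0142 and 0.0443). The 14 measured PPAR target genes of muscle divided evenly, 7 higher and 7 lower. Pdk4, the pyruvate dehydrogenase kinase of fasting, differed between the high-Lep and low-Lep arrays by 0.01 ± 0.10, or -0.04 ± 0.14 with the block. Angptl4, an inhibitor of lipoprotein lipase, differed by 0.48 ± 0.27.

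Matrix genes were higher on the high-Lep arrays by small amounts. Of 36 measured genes of fibrillar collagens and matrix, 32 were higher and 4 lower, with 7 higher at an unadjusted p below 0.05 (19.4%, beside 6.22% of all entries). The median difference was 0.19, and 0.22 with the set as a block. Against LF day 56 the median was 0.20 on the high-Lep arrays and 0.011 on the low-Lep arrays. Col3a1, a collagen of loose connective tissue, was at 2414, 2304, 2396, 3086 and 2743 on the low-Lep arrays and 3229.7, 3450.1, 3029.8, 3926 and 3058 on the high-Lep arrays. Only replicates 8 and 9 of the high-Lep arrays lay below a low array, replicate 6, and the difference was 0.37 ± 0.10, 1.29-fold (adjusted p = 0.279). Col5a2, which sets the width of collagen fibrils, lay at 93.5 to 137 on the low-Lep arrays and at 137 to 173 on the high-Lep arrays, just short of an overlap, and differed by 0.48 ± 0.12. Col6a3, a microfibrillar collagen abundant in fat tissue and muscle, differed by 0.40 ± 0.10, and the matricellular proteins Postn and Sparc by 0.44 ± 0.14 and 0.28 ± 0.10, the latter by 0.18 ± 0.12 with the block. Col1a1, the main tendon collagen, differed by 0.17 ± 0.20, or 0.29 ± 0.27 with the block.

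In neighbouring groups most genes were also higher, though not all of these groups held genes of small p. Basement membrane genes were higher for 11 of 13, with a median of 0.15 (0.26 with the block) and 5 at an unadjusted p below 0.05 (38.5%, beside 6.22% of all entries). Among them Col4a1 differed by 0.35 ± 0.11 and the laminin linker Nid1 by 0.43 ± 0.12. Fibroblast genes were higher for 8 of 11 with a median of 0.13, led by Dpt, which encodes dermatopontin, at 741, 803, 762, 919 and 831 and 966, 1150.1, 902, 1134 and 1093. Only replicate 8 of the high-Lep arrays was below a low array, replicate 6, and the difference was 0.37 ± 0.09 (adjusted p = 0.266). Pdgfra, the receptor that marks fibro-adipogenic progenitors, differed by 0.09 ± 0.11, or 0.05 ± 0.14 with the block. Tendon and fascia genes were higher for 8 of 11 with a median of 0.078 (0.22 with the block), and 0 reached an unadjusted p of 0.05. Vasn, a membrane protein that binds TGF beta, and Ddr2, a collagen receptor kinase, were among the genes of smallest p. Vasn was at 21.7 to 30.1 on the low-Lep arrays and 34.5 to 38.4 on the high-Lep arrays and differed by 0.53 ± 0.09. Ddr2 was at 51.6, 29.5, 30.2, 39.2 and 48.0 and 93.7, 108, 72.3, 80.7 and 53.8. Its highest values were those of replicates 1 and 4, not replicate 9, and its difference was 1.04 ± 0.20 (adjusted p = 0.22) and 0.68 ± 0.22 with the block.

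Most macrophage genes were somewhat higher on the high-Lep arrays. Of 25 measured genes 20 were higher and 5 lower, 8 at an unadjusted p below 0.05 (32.0%, beside 6.22% of all entries), with a median difference of 0.30. The median was 0.17 with the set as a block, where 2 were higher at an unadjusted p below 0.05 (beside 2.71% of all entries), and 0.47 without replicate 2. That array held the most S100a8 and also the highest values of Lyz2 (1153) and Tyrobp (221). Summed levels of the list ran from 1577 to 2056 on the high-Lep arrays and from 912 to 2721 on the low-Lep arrays, and only 11 of the 25 genes exceeded 20 on at least 5 HF arrays. Ctss, a lysosomal protease of antigen presenting cells, was at 135, 133, 113, 207 and 240.1 and 228, 250, 189, 254 and 239. Replicates 6 and 2 of the low-Lep arrays lay within the range of the high-Lep arrays and the other 3 below it, and the difference was 0.54 ± 0.19 (adjusted p = 0.327), or 0.36 ± 0.25 with the block. Mrc1, the mannose receptor of tissue macrophages, differed by 0.44 ± 0.16 and C1qb, a complement subunit made by them, by 0.48 ± 0.21. Adgre1, which encodes F4/80, and Cd68 differed by 0.49 ± 0.16 and 0.64 ± 0.22, the latter by 0.33 ± 0.26 with the block and below 10 on every HF array. Lyz2, which neutrophils share, gave -0.04 ± 0.33, or -0.10 ± 0.45 with the block. Ccr2, the receptor that draws monocytes into tissue, rose with Lep by 0.21 ± 0.04 (adjusted p = 0.0483) at intensities of 6.4 to 12.2, close to background, and with the set as a block the call was lost (adjusted p = 0.299).

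Antigen presentation and acute phase genes gave a few of the larger differences. Among 13 measured genes of antigen presentation 8 were higher and 5 lower, with a median difference of 0.093. At an unadjusted p below 0.05 there were 3 higher (23.1%, beside 6.22% of all entries) and 1 lower (7.69%, beside 5.08%). H2-Eb1, a class II chain, was at 85.8, 81.5, 68.8, 98.6 and 93.9 on the low-Lep arrays and 100, 134, 133, 209.6 and 140.4 on the high-Lep arrays. The highest of the first 5, replicate 6, lies just below the lowest of the second, replicate 1, replicate 10 was the highest, and the difference was 0.71 ± 0.17 (adjusted p = 0.243). The class II chain H2-Aa differed by 0.46 ± 0.14 and the invariant chain Cd74 by 0.22 ± 0.19. Of 19 measured cytokine and acute phase genes 13 were higher, with a median of 0.066, 4 were higher and 1 lower at an unadjusted p below 0.05 (21.1% and 5.26%, beside 6.22% and 5.08% of all entries), and 3 exceeded 20 on at least 5 HF arrays. Hp, which encodes haptoglobin, an acute phase protein that fat cells also make, was at 13.6, 36.9, 41.1, 117 and 78.3 and 58.3, 92.0, 186, 82.2 and 514. Only replicates 8 and 9 exceeded all low arrays. Hp had the steepest of the 26 slopes, 0.91 ± 0.15 (adjusted p = 0.0483), and 0.81 without replicate 9. Ccl8, a chemokine for monocytes, did not overlap between the high-Lep and low-Lep arrays but lay at 5.2 to 12.8 over all HF arrays. Lbp and Lrg1, which are likewise made in inflammation, differed by 0.34 ± 0.15 and 0.49 ± 0.22. Tnf and Ccl2 were at or below 9.3 and 5.8 on every HF array.

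Other blood cell groups were dim or turned on 1 array. All 15 measured neutrophil and marrow genes were lower on the high-Lep arrays, with a median of -0.55, or -1.38 with the block, but their median was 0.28 without replicate 2, and 0 had an unadjusted p below 0.05. None of the 11 measured T cell genes exceeded 20 on at least 5 HF arrays, and 3 were higher and 8 lower. Of 8 measured B cell genes 5 were higher, and of 11 interferon response genes 3 were higher and 8 lower, with a median of -0.071, or -0.29 with the block. The 6 measured complement genes were all higher, with a median of 0.14 (0.22 with the block) and 0 at an unadjusted p below 0.05.

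**Figure D3:**
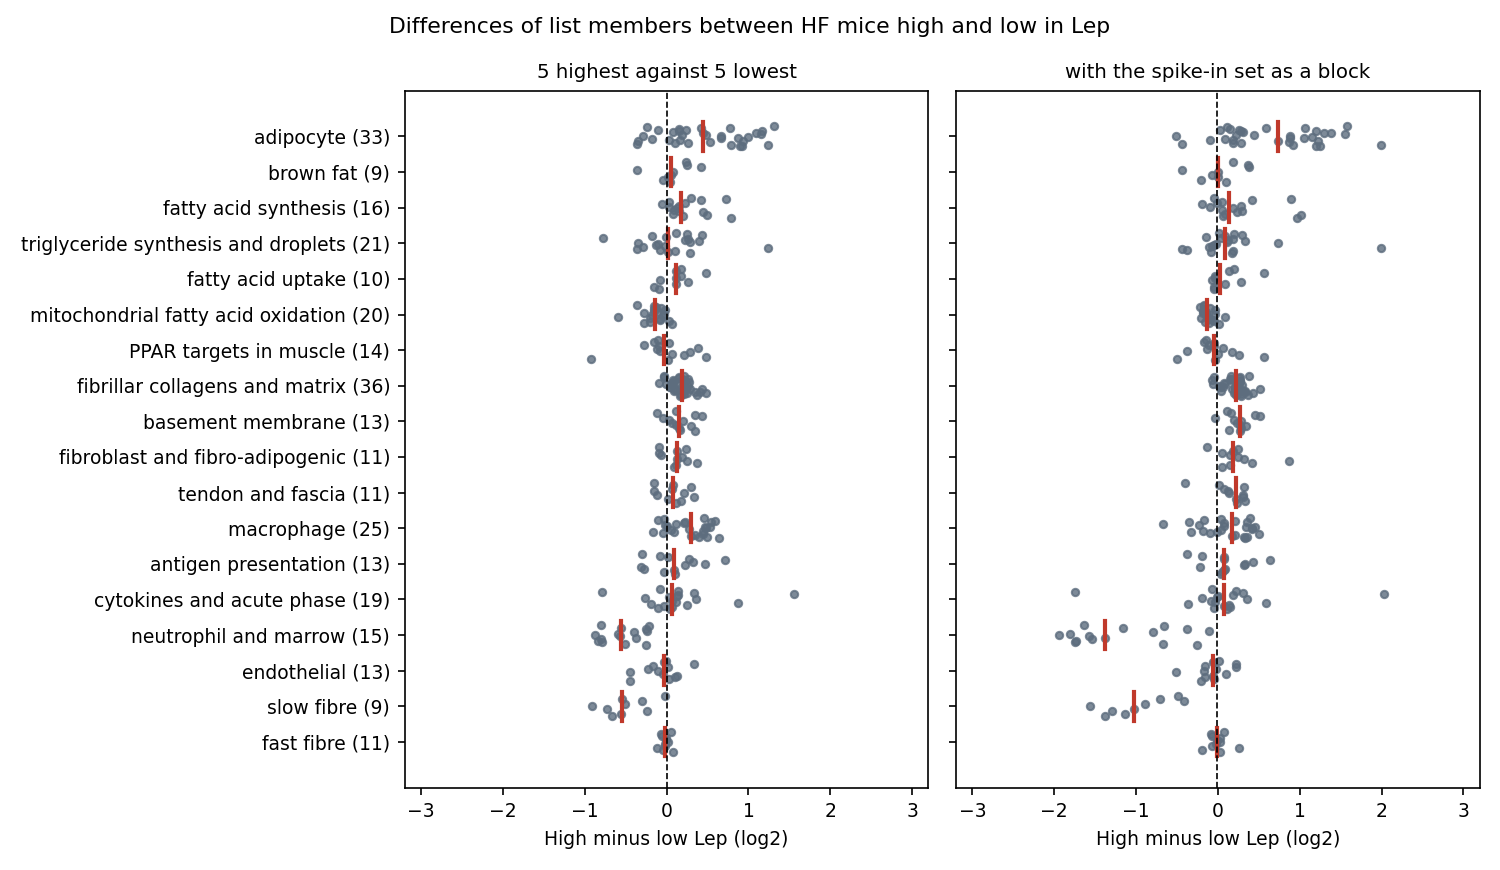
Difference between the high-Lep and the low-Lep arrays (log2) for each measured member of 18 gene lists, as the 5 against 5 comparison on the left and with the spike-in set as a block on the right. Red bars are list medians and the dashed line the median of all entries; the adipocyte median is 0.44 on the left and 0.73 on the right, the macrophage median 0.30 and 0.17, and the neutrophil median -0.55 and -1.38.

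Receptors and signalling partners of leptin and adiponectin in muscle mostly differed little. Of 12 measured genes 7 were higher and 5 lower, with a median of 0.023. At an unadjusted p below 0.05 there were 2 higher (16.7%, beside 6.22% of all entries) and 0 lower, and 0 were higher with the block. Prkaa1 was at 44.4 to 61.1 on the low-Lep arrays and 59.1 to 71.0 on the high-Lep arrays. The leptin receptor Lepr was at or below 3.4 on every HF array. Adipor1, the adiponectin receptor of muscle, was at 1789.7 to 2082 and differed by -0.02 ± 0.07, or -0.01 ± 0.09 with the block, less than its error, and the sign of so small a value turned under other settings. Stat3, which carries the leptin signal, differed by 0.28 ± 0.11 (adjusted p = 0.342), and by 0.12 ± 0.12 with the set as a block.

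Markers of vessels, nerve and fibre types are given because a piece of muscle holds these cells too. Among 13 endothelial genes 5 were higher and 8 lower, with a median of -0.034, or -0.060 with the block. At an unadjusted p below 0.05 there were 1 higher and 2 lower (7.69% and 15.4%, beside 6.22% and 5.08% of all entries). Pecam1 and Emcn differed by -0.45 ± 0.15 and -0.45 ± 0.15, or -0.21 ± 0.17 and -0.52 ± 0.21 with the block. Vwf went the other way. It was at 146.7, 166.6, 164.7, 122.1 and 197.4 on the low-Lep arrays and 204.9, 191.2, 187.7, 196.3 and 212.4 on the high-Lep arrays. The smooth muscle and pericyte list was even, with 5 of 9 higher and a median of 0.016, or -0.10 with the block. Cspg4, a pericyte proteoglycan, did not overlap and differed by 0.48 ± 0.11, at 10.7 to 14.0 and 15.3 to 21.4. All 9 slow fibre genes were lower on the high-Lep arrays with a median of -0.54, or -1.03 with the block. Their levels varied widely on high-Lep and low-Lep arrays, 0 had an unadjusted p below 0.05, and the median was 0.088 without replicate 9, where Myh7 was at 7.7. Fast fibre genes had a median of -0.017.

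The 20 low fat arrays, which took no part in choosing these arrays, offered a separate view of the 26 genes that rose with Lep. In the LF mice Lep stayed below 20, so its own signal was weak. Across all entries, with day as a factor, 0 of 16474 (0.0%) passed the adjusted test with limma, and the smallest adjusted p was 0.0776. An unadjusted p below 0.05 was reached by 949 entries, 491 of them with a positive slope (2.98%). Of the 26 genes, 24 had a positive slope in the LF arrays, against 48.1% of all entries, and 9 were positive at an unadjusted p below 0.05. This number was 10 with the set as a block and 11 without LF day 56 replicate 4. Their median LF slope was 0.30, beside -0.0052 for all entries. Nnmt, Dram1, Sncg and Mmd were the closest, with LF slopes of 0.60 ± 0.14, 0.50 ± 0.13, 0.51 ± 0.13 and 0.34 ± 0.09 (unadjusted p of 0.000294, 0.000798, 0.000955 and 0.00105). Tmem45b, Aoc3, Cd1d1 and Bscl2 were the other 4 with a symbol. Fasn, Orm1 and Rbp4 showed little slope beyond their error, at 0.27 ± 0.45, 0.12 ± 0.35 and 0.13 ± 0.19. Ss18l1 and Ccr2 had negative slopes, of -0.15 ± 0.14 and -0.01 ± 0.16.

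The adipocyte list as a whole can be read in the LF arrays too. Of the 33 measured, 29 had a positive LF slope (87.9%, beside 48.1% of all entries), with a median of 0.23. A positive slope at an unadjusted p below 0.05 was found for 9 (27.3%, beside 2.98% of all entries). A high share of positive LF slopes was not particular to this list. It was 100% for slow fibre genes (median 0.46) and 80.0% for neutrophil and marrow genes (median 0.25). All measured members of those 2 lists were lower on the high-Lep arrays, and 0 of them had a positive LF slope at an unadjusted p below 0.05. Adipoq had an LF slope of 0.63 ± 0.17 (unadjusted p = 0.00144), Retn of 0.62 ± 0.17 (unadjusted p = 0.00167) and Pparg of 0.73 ± 0.20 (unadjusted p = 0.00129). Of these, Pparg had the weakest slope in the HF arrays, 0.20 ± 0.11. Among 36 matrix genes 30 had a positive LF slope (83.3%), with a median of 0.13. Only 1 had an unadjusted p below 0.05 (2.78%), no more than the 2.98% of all entries. Among 25 macrophage genes the slope was positive for 18 (72.0%), and 3 of these had an unadjusted p below 0.05 (12.0%, beside 2.98% of all entries). Cd68 had 0.60 ± 0.14 (unadjusted p = 0.000434). None of these LF slopes passed the adjusted test.

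**Figure D4:**
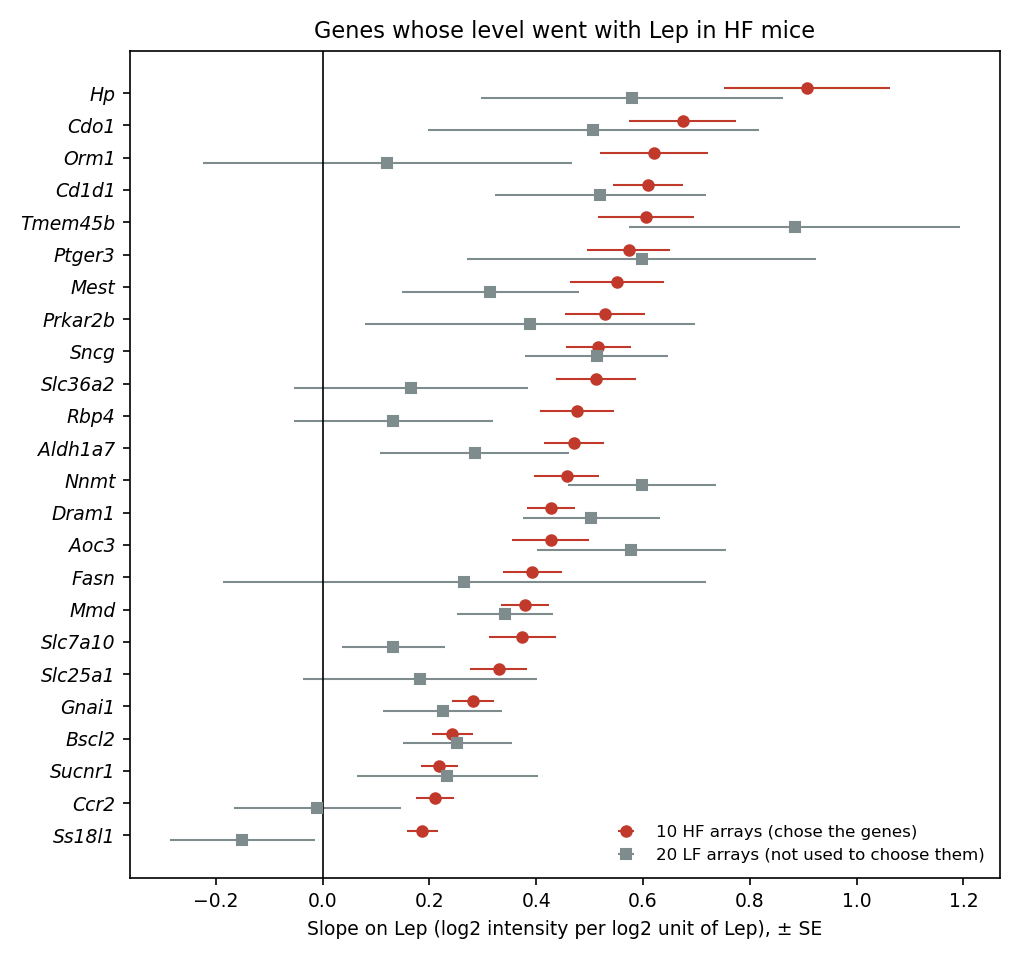
Slope on log2 Lep (log2 units per log2 unit, ± SE) of the 24 named genes that rose with Lep, in red for the 10 HF arrays that selected them and in grey for the 20 LF arrays. The LF points lie above 0 for all but Ss18l1 and Ccr2, and their bars are wider than those of the HF points.

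Each set of 5 HF arrays was also compared with the 10 LF day 56 arrays. These comparisons share the 10 LF day 56 arrays, and so their values are only placed side by side. The high-Lep arrays had 23 entries higher (0.14%) and 1 lower, and the low-Lep arrays 2 higher (0.0121%) and 0 lower, at an adjusted p below 0.05 with limma. The first count was 11 without HF replicate 9, 13 without replicate 8 or replicate 10, 15 without LF day 56 replicate 5, and 38 without LF day 56 replicate 6. The second was 0 without HF replicate 2 or replicate 6, 1 without HF replicate 7 or without LF day 56 replicate 1, 2, 5 or 9, and 6 without HF replicate 3. The same entry, BC048679, passed in both. Of the 24 of the high-Lep arrays, 17 lay within 0.25 log2 units of LF day 56 on the low-Lep arrays. The share of all entries within that limit was not computed, so the 17 cannot be read as a trait of these genes. Of the 24, 11 were among those that rose with Lep (beside 0.158% of all entries). The values of the same high-Lep arrays entered both selections. The overlap, and the differences of these 11 genes from LF day 56 given below, are therefore a description and not separate evidence.

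Those 11 were Cd1d1, Mmd, Sncg, Mest, Dram1, Nnmt, Tmem45b, Hp, Prkar2b, Gnai1 and Slc7a10. Cd1d1 exceeded LF day 56 by 1.47 ± 0.21 on the high-Lep arrays (adjusted p = 0.00105) and by 0.06 ± 0.21 on the low-Lep arrays. Mmd differed from LF day 56 by 0.84 ± 0.12 (adjusted p = 0.00105) and -0.01 ± 0.12, and Sncg by 1.24 ± 0.20 (adjusted p = 0.00227) and 0.24 ± 0.20. LF day 56 ranged over 13.5 to 30.6 for Cd1d1, 251 to 354 for Mmd and 56.8 to 94.2 for Sncg. The low-Lep arrays started slightly lower for all 3 and exceeded the top of that range only for Sncg. Hp had the largest rise, 2.19 ± 0.41 (adjusted p = 0.0137), beside 0.63 ± 0.41 on the low-Lep arrays. Adipoq rose by 0.98 ± 0.21 on the high-Lep arrays (adjusted p = 0.0387) and stood at 0.09 ± 0.21 on the low-Lep arrays; the LF day 56 mice measured 670.1 to 1402.

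The others of the 24, chosen after their values were seen, include products of liver and inflamed tissue. Serpina3n, a protease inhibitor of the acute phase, rose by 1.39 ± 0.21 on the high-Lep arrays (adjusted p = 0.00166) and was at 0.38 ± 0.21 on the low-Lep arrays. Lrg1 and the complement factor Cfb rose by 0.74 ± 0.15 and 0.52 ± 0.11 (adjusted p of 0.0268 and 0.0309). So did Sulf2, a sulfatase of matrix proteoglycans, and Ccdc80, a secreted matrix protein, by 0.51 ± 0.11 and 0.56 ± 0.11 (adjusted p of 0.0443 and 0.0166). Npr3, the clearance receptor of natriuretic peptides, rose by 0.80 ± 0.13 (adjusted p = 0.00265), and Psat1, an enzyme of serine synthesis, by 0.81 ± 0.16 (adjusted p = 0.0166), beside 0.32 ± 0.13 and 0.46 ± 0.16 on the low-Lep arrays. Lmod3, which organises the thin filaments of the sarcomere, was the 1 entry that fell, by 0.28 (adjusted p = 0.0309), beside -0.19 ± 0.06 on the low-Lep arrays.

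**Figure D5:**
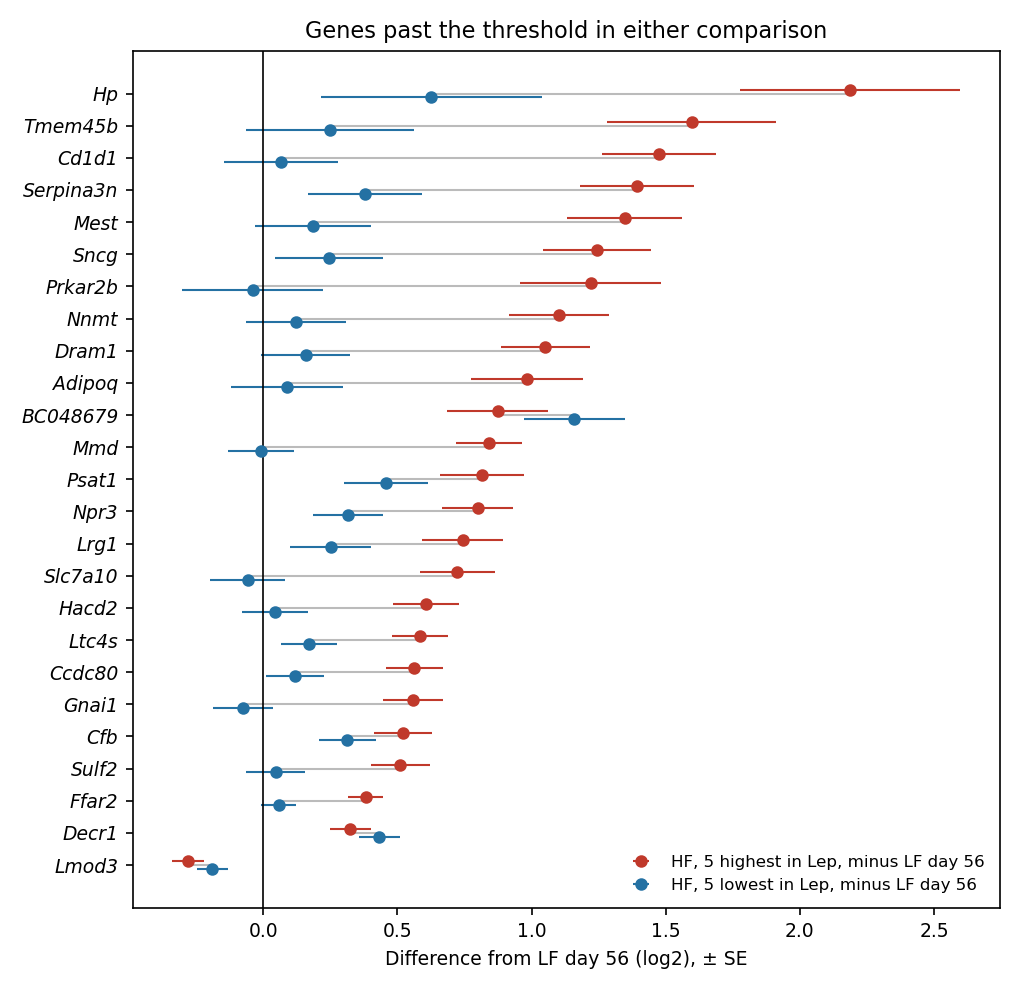
Difference from LF day 56 (log2, ± SE) on the high-Lep arrays (red) and the low-Lep arrays (blue) for the 25 genes past the threshold in either comparison, all from the fit of 30 arrays. Red points lie farther from 0 than blue ones except for BC048679 and Decr1, which are 1.16 and 0.43 on the low-Lep arrays and 0.87 and 0.32 on the high-Lep arrays.

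Among genes with a clear signal, those of smallest p between the high-Lep and low-Lep arrays were all outside the gene lists. In the high direction the 10 were Sash1, Vasn, Zbtb10, Cd1d1, Pde3b, Ppp2r1b, Prkar2b, Cdo1, Ddr2 and Rffl. Sash1, a scaffold protein of endothelial and epithelial cells, was at 197, 191, 202, 176 and 255 on the low-Lep arrays and 323, 314, 282, 344 and 363 on the high-Lep arrays. Replicate 9, with the most Lep, also had the most Sash1, the high-Lep and low-Lep arrays did not overlap, and the difference was 0.68 ± 0.11 (unadjusted p = 3.8e-05, adjusted p = 0.179). In the low direction the 10 were G6pc3, Slc31a1, Slc20a2, Nmrk2, Myo18b, Rnf121, Agpat3, Fam210a, Polk and Bop1. G6pc3, a glucose-6-phosphatase of most tissues, measured 93.0, 97.8, 105, 106 and 98.8 on the low-Lep arrays and 73.5, 74.1, 75.7, 67.6 and 78.5 on the high-Lep arrays. Both sets of 5 values lay within a narrow band, and it differed by -0.44 ± 0.07 (adjusted p = 0.179). Nmrk2, the nicotinamide riboside kinase of muscle, was at 1581 to 2806 and 1172 to 1463 and differed by -0.71 ± 0.14, while the phosphate transporter Slc20a2 differed by -0.93 ± 0.17, or -0.60 ± 0.18 with the block. Myo18b, an unconventional myosin of the sarcomere, was at 56.6, 142, 120.4, 90.9 and 37.6 and 19.1, 16.0, 42.5, 26.7 and 18.7. Its 3 highest values were again those of the smaller spike-in set, and the difference of -1.80 ± 0.36 was -1.0 ± 0.33 with the set as a block.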

How the data were processed

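The deposited values are GCRMA intensities, per the submitters' processing notes, with 1 value per gene on a linear scale as the values show (GCRMA version, chip description and build are not given in the sources used here). The table holds 16539 entries, of which 64 are controls and 15780 of the others have a gene symbol from the platform annotation. Array medians lay between 9.0 and 9.5, and the number of arrays limits the precision. Here log2 of the deposited intensity, with no pseudocount, was fitted with limma 3.58.1 in R 4.3.3 (lmFit, eBayes), with Benjamini-Hochberg adjustment over 16474 entries, Lep left out. The fits were the 5 high-Lep against the 5 low-Lep arrays, the slope on log2 Lep among the same arrays, the slope on log2 Lep over the 20 LF arrays with day as a factor, and the high-Lep and the low-Lep arrays each against LF day 56 in a fit of all 30 arrays. The members and gene lists were chosen with earlier results of these data known. Named genes are the 10 of smallest p in each direction above 20 on at least 5 HF arrays, up to 4 such members of each list, a panel of known genes, and others chosen after their values were seen. The labels give each array its own mouse. In simulated data the 5 against 5 fit recovered 84 of 100 genes changed by 1 log2 unit and 98 of 100 changed by 2. The simulated noise was independent between genes and held no spike-in set effect, and the changed genes had average levels above 20. These shares therefore do not measure the power of the fit on the real arrays. Alternatives covered normalization, filter, pseudocount, prior, spike-in set, neutrophil and slow fibre genes, and single arrays. The fits in the larger set alone, with set and slope or set and all arrays together, without arrays high in S100a8, and all alternatives of the HF slope were chosen after seeing the data.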

Additional observations from a re-analysis of the deposited data

Results flagged for a closer look

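Among 291 sets of values over 97 genes (the HF group, its high-Lep and its low-Lep arrays), 13 held an array that stood apart from the others by Dixon's criterion. Chance alone meets it in about 1 of 20 sets, a rate that 13 of 291 does not exceed, and the sets of a gene share arrays. On replicate 9, with the most Lep, Slc7a10 was at 20.8 (next highest 11.1), Orm1 at 103.8 (next 33.2) and Npr3 at 23.0 (next 14.7), and Lpl was the lowest of the high-Lep arrays at 3072 (next 3845.7). On replicate 3, with the least Lep, Aoc3 at 32.2 and Fasn at 27.9 were the lowest of the low-Lep arrays (next 57.8 and 43.6). Replicate 8 was the lowest of the high-Lep arrays for Itih5 at 109.7 (next 161.8) and the highest for Gpam at 529.9 (next 278.9), Decr1 at 1066.4 (next 862.9) and Pdgfra at 104.4 (next 83.2). Plin2 on replicate 1 was the lowest of the high-Lep arrays at 427.1 (next 518.0), Adgre1 on replicate 5 the lowest of the low-Lep arrays at 10.9 (next 15.4), and Lmod3 on replicate 7 the highest of the HF arrays at 1186.4 (next 1057.1).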

How the results depend on the processing

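No paired analysis was possible because high-Lep and low-Lep arrays come from 1 diet group and the replicate numbers belong to different mice. The count of entries past the adjusted threshold between the high-Lep and low-Lep arrays was 0. It was 2 in the fit of all 30 arrays, 8 without the arrays on either side of the division, 26 for the slope on Lep and 23 for that slope with the set as a block, and ran from 0 to 74 without single arrays. The HF slope count of 26 was 8 in the larger spike-in set alone, 17 with quantile normalization, 12 with a pseudocount of 8, 11 with the filter on low values and 13 with Myh7 as a covariate. It ran from 0 to 30 without single arrays. The LF slope count of 0 was 1, a negative slope, with quantile normalization and 0 without any single array. The count of the high-Lep arrays against LF day 56 ran from 11 to 38 and that of the low-Lep arrays from 0 to 6 without single arrays.

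Of 96 gene differences between the high-Lep and low-Lep arrays, 87 kept their sign under all 15 alternatives and without any single array. For Lipe the sign turned with the set as a block or in the larger set alone (0.73), in all 30 arrays with the set (0.53), for the slope with the set (0.31) and without arrays with S100a8 above 100 (0.29). Gpam turned with the set as a block or in the larger set alone (0.042). Lpl and Decr1 turned without the arrays high in S100a8 (0.045 and 0.0013). Plin5 turned with Myh7 as a covariate and without the arrays beside the division (0.0037 and 0.0043). Pdk4 turned with median centring (-0.014), with the set as a block or in the larger set alone (-0.041), for the slope (-0.041) and the slope with the set (-0.079), without the arrays beside the division (-0.046), in all 30 arrays with the set (-0.028) and without arrays high in S100a8 (-0.14). Lyz2 turned with the neutrophil score (0.0023) or Myh7 (0.068) as a covariate, for the slope (0.033) and the slope with the set (0.042), without the arrays beside the division (0.21), in all 30 arrays with the set (0.15) and without arrays high in S100a8 (0.65). Adipor1 turned with quantile normalization (0.035), for the slope (0.015) and the slope with the set (0.027), in all 30 arrays with the set (0.031) and without arrays high in S100a8 (0.016). Without single arrays, Plin5 ran from -0.24 to 0.078, Pdk4 from -0.037 to 0.077, Lyz2 from -0.26 to 0.20, Adipor1 from -0.040 to 0.011 and Myh7 from -1.76 to 0.10. The causes were not tested. Since all 3 HF arrays of the smaller spike-in set are low-Lep arrays, fits with the set compare 5 arrays with 2. Low intensities limit many members, since 6488 of 16475 genes exceeded 20 on at least 5 HF arrays.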
